A study of Mus musculus with 3 samples.

Results

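Solute carriers of the families Slc2, Slc4, Slc5, Slc9, Slc12, Slc22 and Slc34 carry out most of the reabsorption and secretion along the kidney tubule. The families were picked with earlier results of these data known. Within them, genes were chosen by name alone. Every gene on the array whose symbol places it in 1 of these 7 families was taken, whatever its value. This gave 70 genes with 110 probes among the 19754 genes tested. Slc22 contributed 18 genes, Slc2 and Slc5 gave 11 each, Slc4, Slc9 and Slc12 had 9 each, and Slc34 had 3.

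The expression profiles of Fgfrl1-/- and wildtype kidney rudiments were compared at E12.5 to find genes that depend on Fgfrl1, a receptor of the fibroblast growth factor receptor family. Both genotypes were on a C57BL/6 background and came from the same litters, and the mutants carried the inactivated gene in all cells. Each genotype was represented by 3 RNA pools of 6 to 9 rudiments, and each of the 3 Agilent arrays took up 1 mutant and 1 wildtype pool. Fgfrl1-/- RNA carried Cy3 and wildtype RNA carried Cy5 on every array, with 0 dye swaps, so that dye and genotype cannot be told apart.

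In the mature nephron, facilitative glucose carriers of the Slc2 family and sodium-coupled carriers of the Slc5 family return sugars to the blood. Members of Slc4 move bicarbonate, members of Slc9 exchange sodium for protons, Slc12 genes encode the cotransporters of chloride with sodium or potassium, Slc22 genes encode the carriers of organic anions and cations, and Slc34 genes take up phosphate. Many relatives of these tubule carriers do housekeeping work in all cells, setting cell volume, pH or glucose entry. The metanephric kidney at this stage consists of a branching ureteric bud, condensing mesenchyme and stroma, before functional tubules exist.

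The arrays differed in signal over background and in how well their ratios matched, before any carrier was considered. Array 1 had a slide of its own and an older release of the scanner software, while arrays 2 and 3 shared a slide. Over all genes, Pearson's r was 0.769 between arrays 2 and 3 but 0.28 and 0.324 between array 1 and each of them. These are correlations across genes, and genes are no independent replicates. The share of probes well above background on arrays 1, 2 and 3 was 80.2%, 57.1% and 63.9% in the Fgfrl1-/- channel, against 60.9%, 65.0% and 64.7% in the wildtype channel. Of 9 genes of the early kidney, 8 were well above background in all 6 pools, Six2, Wt1 and Eya1 among them, and only Ret was not well above background in any. Fgfrl1 itself was lower in the Fgfrl1-/- pools, with log2 ratios of -1.21, -1.51 and -1.83 on arrays 1, 2 and 3 (2.86-fold on average, limma adjusted p = 0.011). Whether its probe lies in the deleted part was not examined.

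A gene was counted as detected in a pool if at least 1 of its probes was well above the local background by the flag of the scanner software. By this measure, 36 of the 70 carriers (51.4%) were detected in all 6 pools, 24 in some pools and 10 in none. Over all genes tested the share detected in all pools was 66.8%, and over 258 solute carrier genes of other families it was 64.3%. The share detected in none was 14.3% of the 70 carriers and 13.9% of all genes. No carrier was detected in all 3 pools of one genotype and in 0 pools of the other.

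The families differed in how many genes were detected. Slc12 and Slc2 stood highest, with 7 of 9 and 8 of 11 genes detected in all 6 pools. Slc4 followed with 6 of 9 genes, Slc22 with 9 of 18, Slc9 with 3 of 9 and Slc5 with 3 of 11. None of the 3 phosphate carriers of Slc34 was detected in all pools. In the wildtype channel alone, the number of genes detected on all 3 arrays was 9 for Slc2, 3 for Slc5, 6 for Slc4, 4 for Slc9, 7 for Slc12, 10 for Slc22 and 0 for Slc34. In the Fgfrl1-/- channel it was 8, 3, 6, 3, 7, 9 and 0 in the same order.

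**Figure D1:**
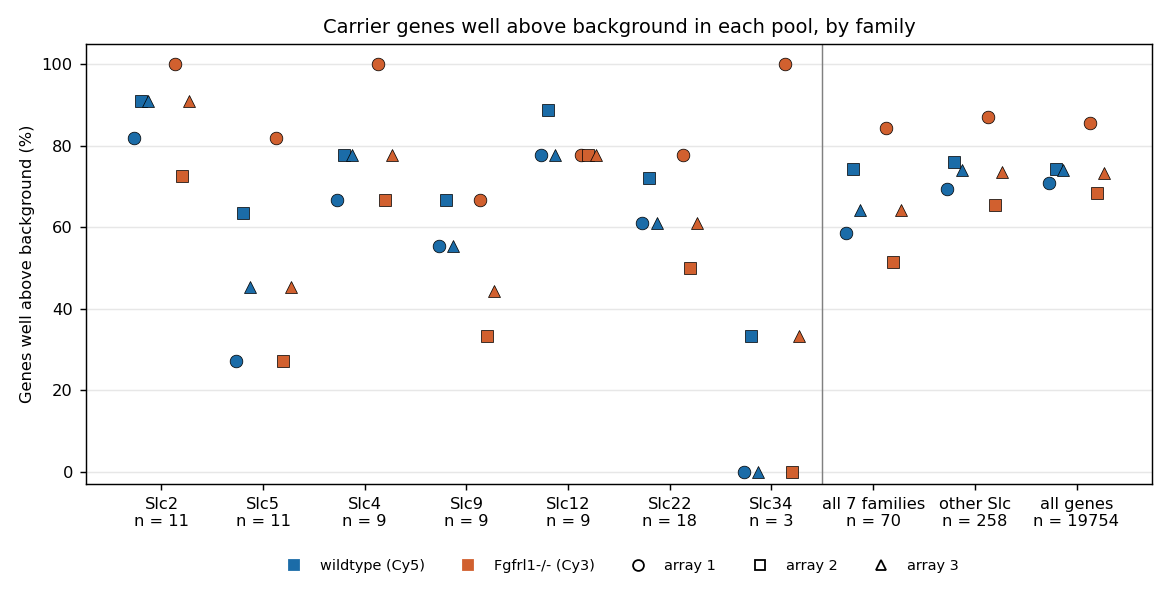
Share of the genes of each family (percent, y axis) that were well above background in each pool, with wildtype pools in blue, Fgfrl1-/- pools in orange and 1 symbol per array; n gives the genes per family. Slc34 lies at the bottom in 5 of the 6 pools but had all 3 genes detected in the Fgfrl1-/- pool of array 1. The Fgfrl1-/- pool of array 1 (orange circles) exceeds the other pools in 5 of the 7 families and in the set of all genes.

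The detection of dim carriers followed the array and the channel. On array 1, 59 carriers were detected in the Fgfrl1-/- pool and 41 in the wildtype pool. On array 2 the order was turned, with 36 in the Fgfrl1-/- pool and 52 in the wildtype pool, and on array 3 there were 45 in each. The count over all genes moved in the same way, from 16925 against 14018 genes on array 1 to 13497 against 14670 on array 2. For 7 carriers, the Fgfrl1-/- pool of array 1 was the single pool with detection, namely Slc2a2, Slc5a1, Slc5a8, Slc4a10, Slc4a11, Slc22a7 and Slc34a2. The part of the array background in these counts was not tested, and a difference in detection between the genotypes was not readable from them.

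The carriers known from the proximal tubule were mostly dim. Of 19 such genes, 4 were detected in all 6 pools, namely Slc5a10, Slc22a4, Slc22a5 and Slc22a12, while 13 were detected in some pools and 2 in none. The role lists used here (proximal, loop and distal tubule, duct, most cell types) hold 39 of the 70 carriers. The sodium-glucose carriers Slc5a1 and Slc5a2, the apical sodium-proton exchanger Slc9a3, the organic anion carrier Slc22a6 and the phosphate carriers Slc34a1 and Slc34a3 were detected in 1 to 3 of the 6 pools. The organic cation carrier Slc22a2 and the lactate carrier Slc5a12 were detected in none. Their levels gave no order of the genotypes. Levels are log2 of the normalized intensity, scaled between arrays, and are compared between pools for 1 probe at a time. Slc22a6, for example, had log2 levels of 6.14, 6.40 and 6.23 in the wildtype pools of arrays 1, 2 and 3 and of 6.28, 6.22 and 6.23 in the Fgfrl1-/- pools, and these ranges overlapped.

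The furosemide-sensitive cotransporter Slc12a1 of the loop of Henle was detected in 1 wildtype pool, and the thiazide-sensitive cotransporter Slc12a3 of the distal tubule in none. Slc12a3 had log2 levels of 6.01, 5.96 and 6.10 in the wildtype pools and of 5.96, 6.00 and 6.06 in the Fgfrl1-/- pools, so that the groups lay on top of each other. The exchanger Slc9a2 was detected in 5 of the 6 pools. By contrast, the anion exchangers Slc4a1, Slc4a8 and Slc4a9, which are known from the collecting duct, were detected in all 6 pools. Of 14 carriers that are known from most cell types, 13 were detected in all 6 pools, among them the glucose carrier Slc2a1 and the volume-regulating cotransporters Slc12a2, Slc12a4 and Slc12a7. The exception was the myo-inositol carrier Slc5a3, which was detected in 2 pools of each genotype.

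Ratios are given below as log2 of Fgfrl1-/- over wildtype, after loess normalization, with 1 value per array and the probe of highest signal for each gene. Of the 70 carriers, 2 rose in the Fgfrl1-/- pools at a limma adjusted p below 0.05, Slc22a18 and Slc22a17, and 0 fell. Over all genes, 1.96% were called higher and 1.7% lower. The count of 2 among 70 is close to this background, and nothing particular to the carriers can be read from the count. At an unadjusted p below 0.05 stood 13 of the 70 carriers (18.6%) and 4165 of all genes (21.1%). Since each pool holds whole rudiments, fewer cells of a type and less RNA per cell cannot be told apart.

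Slc22a18 encodes a carrier of the organic cation group and lies in an imprinted gene cluster. Its log2 level was 7.77, 8.20 and 7.93 in the wildtype pools of arrays 1, 2 and 3, and 8.20, 8.84 and 8.75 in the Fgfrl1-/- pools. The Fgfrl1-/- pool was higher on every array, and the lowest Fgfrl1-/- pool and the highest wildtype pool had almost the same level. The mean log2 ratio was 0.63 ± 0.19 (SD, n = 3), or 1.55-fold, with a 95% interval of 0.40 to 0.86 and a limma adjusted p of 0.033. A second probe of the gene, which was detected in 5 of the 6 pools, showed ratios of -0.01, -0.04 and 0.04. Its levels were 6.43, 6.41 and 6.46 in the wildtype pools and 6.42, 6.37 and 6.50 in the Fgfrl1-/- pools, which overlapped. The difference thus rests on 1 of the 2 probes. The second probe lies close to background, where the offset of 50 intensity units added to each signal draws ratios toward 0. Its ratios therefore cannot decide whether the 2 probes disagree.

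Slc22a17 encodes a relative of the organic cation carriers that is known as a receptor for the iron-carrying protein lipocalin 2. Its log2 level was 9.34, 8.46 and 8.31 in the wildtype pools and 9.80, 8.82 and 8.76 in the Fgfrl1-/- pools. Both genotypes were highest on array 1, and the groups overlapped, but the Fgfrl1-/- pool exceeded its partner on every array. The ratios were 0.46, 0.37 and 0.45, with a mean of 0.42 ± 0.052 (SD, n = 3), or 1.34-fold, a 95% interval of 0.25 to 0.60 and a limma adjusted p of 0.042. The second probe of this gene, detected in all pools, gave 0.43, 0.22 and 0.29, with a mean of 0.31 ± 0.11 (SD, n = 3), in the direction of the first.

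The probes of both genes are shown because the pairs of probes differ in what they reported. Each is given 5′ to 3′ by its first 30 of 60 bases, as the array files list it, with positions on the mouse build mm8. The tested probe of Slc22a18 lies at chr7:143308614-143308673 and the second one at chr7:143285636-143285695, 22978 bases before it. The tested probe of Slc22a17 spans chr14:53861796-53862110, which is longer than the probe and therefore holds a splice junction, and the second one lies at chr14:53862787-53862846. No annotation of this build was used to place them in exons.
Slc22a18, tested probe: ggtcctttggaagaagccattgtcccagaa
Slc22a18, second probe: acctatgtgctggcagccctggagctaacg
Slc22a17, tested probe: ctggggctgtgggattatctgaacgatgct
Slc22a17, second probe: ctgtttctggagtctgcacggtggctgata

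**Figure D2:**
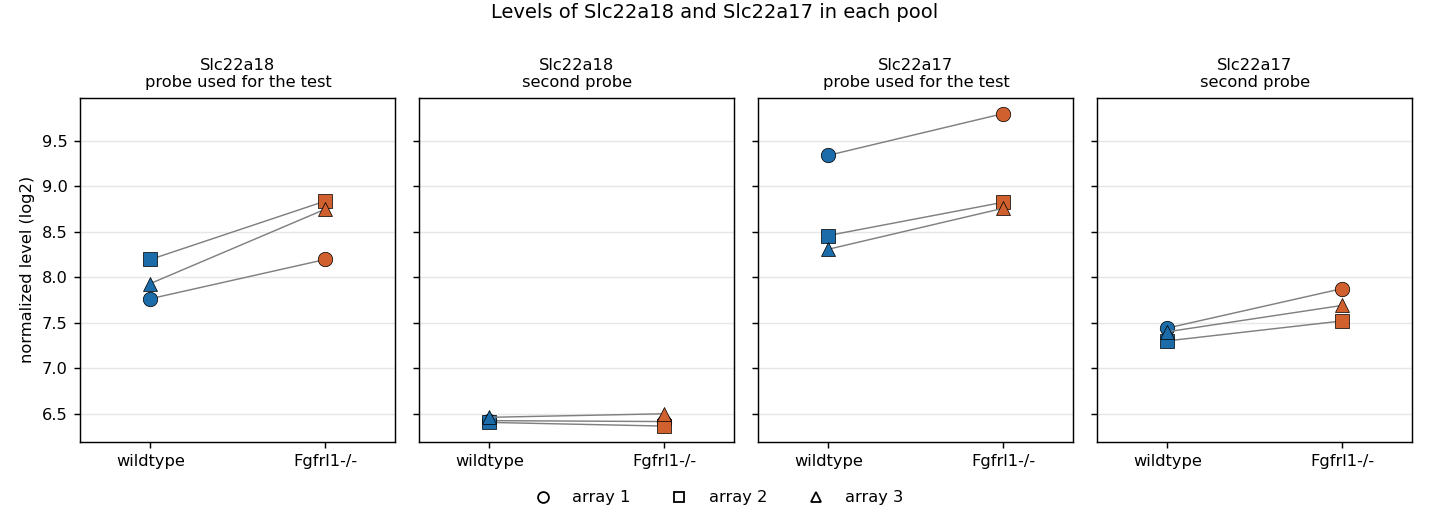
Normalized log2 level (y axis) of both probes of Slc22a18 and of Slc22a17 in the 3 wildtype and the 3 Fgfrl1-/- pools, with a line between the pools of 1 array. The tested probes rise on every array, by 0.43 to 0.82 for Slc22a18 and by 0.37 to 0.46 for Slc22a17. The second probe of Slc22a18 stays level, close to background.

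Neither call was stable to the processing. Over 15 alternative settings that can change a ratio or its test, Slc22a18 was called in 6 and Slc22a17 in 4, and the ratio of both stayed positive throughout. Without array 1 the adjusted p was 0.00034 for Slc22a18 and 0.0037 for Slc22a17, without array 2 it was 0.15 and 0.20, and without array 3 it was 0.26 and 0.33 (limma). The fit without array 1 used 2 arrays of the same slide. It called far more of all genes than the main fit, as given below, so its small p-values do not single out these genes. With median centring in place of loess, the ratios were 0.51 and 0.27 with adjusted p of 0.27 and 0.80.

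Among the potassium-chloride cotransporters of Slc12, which export both ions from the cell, 2 had large ratios that missed the threshold. Slc12a4 had log2 levels of 9.47, 9.86 and 9.90 in the wildtype pools and of 10.40, 10.30 and 10.27 in the Fgfrl1-/- pools, and the groups did not overlap. Its ratios were 0.93, 0.44 and 0.36, with a mean of 0.58 ± 0.31 (SD, n = 3), a 95% interval of 0.27 to 0.88 and a limma adjusted p of 0.064. Slc12a5, which is known from neurons, had levels of 9.27, 9.38 and 9.15 in the wildtype pools and of 10.37, 9.68 and 9.499 in the Fgfrl1-/- pools, again without overlap. Its ratios were 1.104, 0.30 and 0.35, with a mean of 0.59 ± 0.45 (SD, n = 3), an interval of 0.18 to 0.99 and an adjusted p of 0.116 (limma). For both genes array 1 stood far above the other arrays. Without it the mean ratios were 0.40 and 0.33 and both genes were called, in a fit that called 2418 of 19754 genes higher. Without array 2 the adjusted p was 0.178 for Slc12a4 and 0.185 for Slc12a5, and without array 3 it was 0.242 and 0.326 (limma).

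Neuronal markers were measured beside Slc12a5. Of 6 such genes, 4 were detected in all pools and none was without detection in every pool. Their summed level, on the linear intensity scale, was 2008 to 2404 in the wildtype pools and 1531 to 1798 in the Fgfrl1-/- pools, the opposite direction to Slc12a5, and Elavl4 fell by 0.71 on the log2 scale (limma adjusted p = 0.049). The other genes of Slc12 had smaller ratios. The orphan carrier Slc12a8 had the lowest mean of the detected members, at -0.25 ± 0.17 (SD, n = 3; limma adjusted p = 0.184), and Slc12a2, Slc12a7 and Slc12a9 lay between -0.10 and 0.11. The median of the 9 genes was -0.04.

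In the glucose carrier family Slc2, the means ran from -0.27 to 0.32 and the median of the 11 genes was 0.03. Slc2a10, whose loss causes tortuous arteries in humans, had levels of 7.63, 7.60 and 7.70 in the wildtype pools and of 7.91, 8.03 and 7.95 in the Fgfrl1-/- pools. The groups did not overlap, and the spread between arrays was small. The mean ratio was 0.32 ± 0.10 (SD, n = 3), with a 95% interval of 0.13 to 0.51 and an adjusted p of 0.080 by limma. The fructose carrier Slc2a5 was lowest, with ratios of -0.44, -0.19 and -0.17, averaging -0.27 ± 0.15 (SD, n = 3; limma adjusted p = 0.152). Its wildtype levels of 7.26 to 7.91 overlapped the Fgfrl1-/- levels of 6.82 to 7.72.

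The main glucose carrier of embryonic cells, Slc2a1, had ratios of -0.11, 0.15 and -0.27, and its 95% interval reached from -0.32 to 0.17. The insulin-responsive carrier Slc2a4 was higher on all 3 arrays, at 0.46, 0.09 and 0.20 (limma adjusted p = 0.202). The 4 skeletal muscle markers measured beside it were detected in all pools, with summed levels of 529 to 1544 in the wildtype and 606 to 1435 in the Fgfrl1-/- pools. These ranges overlapped, and their part in the ratio of Slc2a4 was not tested. The proton-coupled myo-inositol carrier Slc2a13 was lower on all 3 arrays, by 0.16 to 0.26 on the log2 scale (limma adjusted p = 0.189).

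The sodium-coupled carriers of Slc5 had means between -0.16 and 0.11 and a median of 0.00 over 11 genes. Of the 3 detected members, the vitamin carrier Slc5a6 was lowest, with ratios of -0.45, -0.04 and 0.005, averaging -0.16 ± 0.25 (SD, n = 3; limma adjusted p = 0.478). Its difference lay on array 1, where the wildtype level was 9.23 and the Fgfrl1-/- level 8.78, while levels on the other arrays ran from 8.52 to 8.56. Slc5a10, a carrier of mannose and fructose, was highest at 0.03 ± 0.05 (SD, n = 3; limma adjusted p = 0.857). Its 95% interval was -0.14 to 0.21. The probe was dim, at log2 levels of 6.43 to 7.01 in the wildtype pools. The offset of 50 intensity units draws such ratios toward 0, so the interval bounds only the ratio after this offset. None of the 11 genes had an unadjusted p below 0.05 (limma).

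The bicarbonate carriers of Slc4 were spread from -0.27 to 0.26, with a median of -0.04. Slc4a1, the band 3 protein of red blood cells that also serves acid-secreting duct cells, had levels of 9.80, 9.68 and 9.78 in the wildtype pools and of 9.40, 9.61 and 9.43 in the Fgfrl1-/- pools. The groups did not overlap, though array 2 contributed little. The mean ratio was -0.27 ± 0.18 (SD, n = 3), with an interval of -0.50 to -0.05 and an adjusted p of 0.165 by limma. Of 7 erythroid genes measured beside it, 5 were detected in all pools, including the globins Hba-x, Hbb-y, Hbb-bh1 and Hba-a1. Their summed level ran from 116487 to 120061 in the wildtype pools and from 105339 to 110561 in the Fgfrl1-/- pools, without overlap, and their part in the ratio of Slc4a1 was not tested.

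Slc4a3, an anion exchanger of excitable cells, was highest in the family. The ratios were 0.43, 0.13 and 0.23, the mean was 0.26 ± 0.15 (SD, n = 3) and the limma adjusted p was 0.155, and its second probe gave 0.24, 0.03 and 0.23. The bicarbonate importers Slc4a7 and Slc4a8 averaged -0.21 and -0.20. Slc4a7 shows how far probes of 1 gene can part. Its tested probe gave 0.09, -0.46 and -0.27, the second gave -0.29, -0.24 and -0.36, and the third gave -0.71, 0.55 and -0.01. The wildtype level of the third probe was 11.44 on array 1 but 8.58 and 8.22 on arrays 2 and 3.

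The sodium-proton exchangers of Slc9 had a median of -0.01 over 9 genes and means between -0.21 and 0.21. Among detected members, the Golgi exchanger Slc9a8 was highest, with ratios of 0.43, 0.11 and 0.09, averaging 0.21 ± 0.19 (SD, n = 3; limma adjusted p = 0.273). Its other 3 probes, which were not detected in all pools, had mean ratios of -0.07, -0.04 and 0.08, and the mean over its probes was 0.046. The levels overlapped, at 8.45 to 8.86 in the wildtype and 8.56 to 9.29 in the Fgfrl1-/- pools. The lowest mean of the family, -0.21, belonged to the endosomal exchanger Slc9a9, which was detected in 3 of the 6 pools.

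In Slc22, 6 of the 18 genes (33.3%) were higher on all 3 arrays and 1 (5.6%) was lower. Over all genes these shares were 22.6% and 20.6%. Besides the called genes, the 6 included the carnitine carriers Slc22a5, Slc22a16 and Slc22a21. Their means were 0.07, 0.04 and 0.28, with limma adjusted p of 0.648, 0.805 and 0.258. Slc22a5 and Slc22a21 are close paralogs, and cross-hybridization between them was not tested. The urate exchanger Slc22a12 and the anion carriers Slc22a13 and Slc22a20 changed sign between the slides. Slc22a20, first described in the nose, had levels of 6.60, 7.23 and 7.55 in the wildtype pools and of 7.74, 6.66 and 6.54 in the Fgfrl1-/- pools. Its ratios of 1.14, -0.57 and -1.002 gave a mean of -0.14 ± 1.13 (SD, n = 3), the largest spread among the 70 carriers. Slc22a13 had 0.60, -0.51 and -0.45, and Slc22a12 had 0.79, -0.06 and -0.17. The median of the 18 genes was 0.03.

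The 3 sodium-phosphate carriers of Slc34 gave no stable ratio. Slc34a1, the main carrier of the proximal tubule, had ratios of 0.33, -0.51 and -0.06 and was detected in 1 pool of each genotype. Slc34a2 had 0.17, 0.17 and -0.09, and Slc34a3 had 0.44, -0.14 and 0.07. Their 95% intervals of -0.47 to 0.31, -0.13 to 0.30 and -0.17 to 0.42 include 0, and for probes so close to background the offset of 50 intensity units added to each signal draws ratios toward 0.

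**Figure D3:**
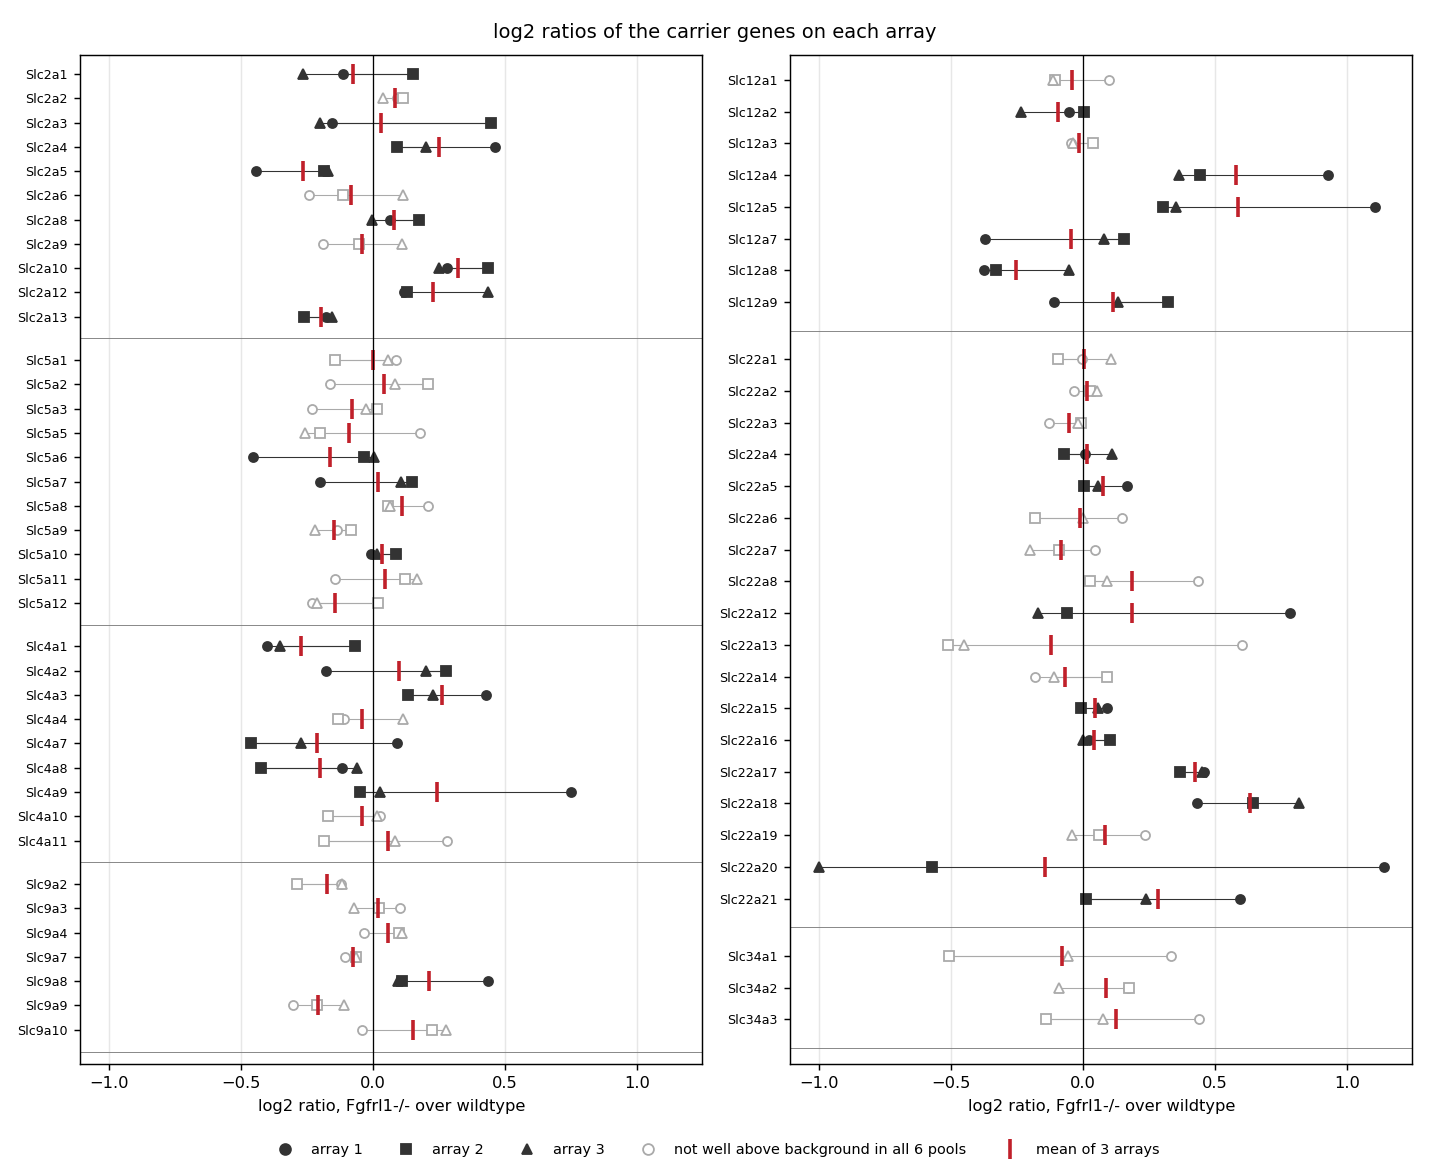
log2 ratio of Fgfrl1-/- over wildtype (x axis) of 67 of the 70 carriers on arrays 1 (circles), 2 (squares) and 3 (triangles), with the mean as a red bar and open grey symbols for genes not well above background in all 6 pools. Most means lie near 0, Slc22a18, Slc12a5, Slc12a4 and Slc22a17 stand farthest to the right, and Slc22a20 has the widest spread.

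Seen together, the carriers had a median log2 ratio of 0.01, as had all genes, and the medians on arrays 1, 2 and 3 were 0.00, 0.01 and 0.01. Of the 70 carriers, 15 were higher on all 3 arrays and 11 were lower on all 3, which is 21.4% and 15.7%. Over all genes 22.6% were higher and 20.6% lower on all arrays. For 48 carriers (68.6%) the SD between arrays exceeded the size of the mean, against 59.9% of all genes. A mean ratio above 1 or below -1 occurred in 0 of the 70 carriers and in 51 of the 19754 genes. A mean above 0.5 or below -0.5 occurred in 3 carriers (4.29%), namely Slc22a18, Slc12a5 and Slc12a4, and in 3.31% of all genes.

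Array 1 opposed both other arrays in sign for 19 of the 70 carriers (27.1%) and for 29.6% of all genes. Across the 70 carriers, its ratios correlated at 0.053 with array 2 and 0.090 with array 3, while arrays 2 and 3 correlated at 0.663 (Pearson's r across genes, given as a description). Arrays 2 and 3 shared a slide and a software version, and whether slide, software or the pools set this pattern cannot be told apart. When array 1 was left out, 8 carriers were called higher and 4 lower. Over all genes that setting called 2418 higher and 2247 lower, with 2 arrays of 1 slide.

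**Figure D4:**
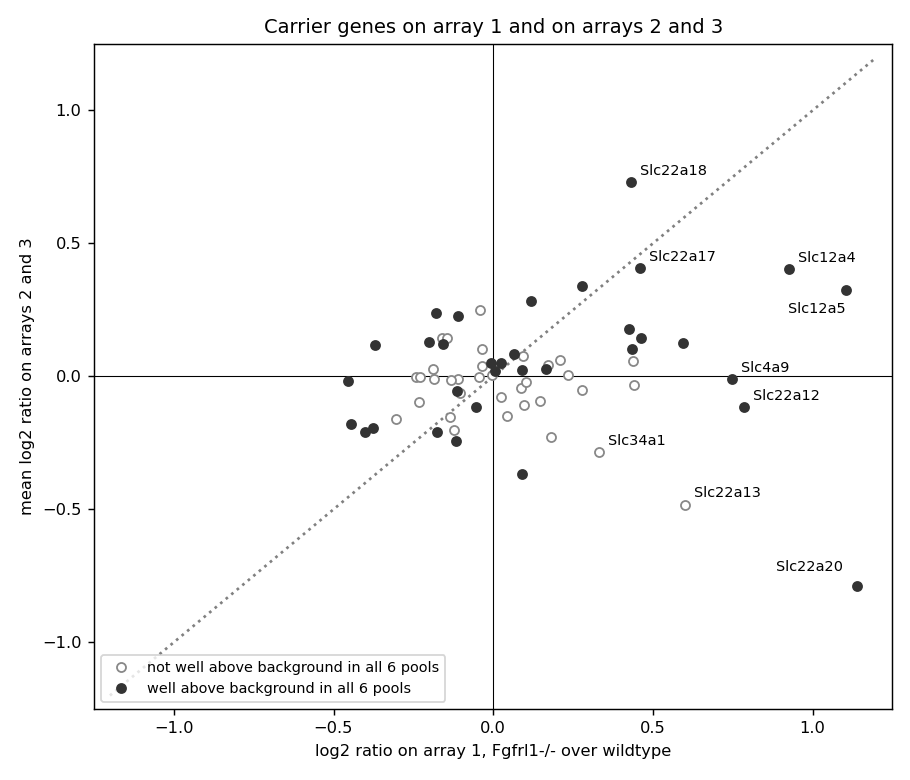
log2 ratio of 67 of the 70 carriers on array 1 (x axis) against the mean of arrays 2 and 3 (y axis), filled for genes well above background in all 6 pools; the dotted line marks equal values. Slc22a17 lies near the line, Slc22a18 above it, and Slc22a20, Slc22a13, Slc22a12 and Slc34a1 fall at the lower right, positive on array 1 and negative on the others.

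Carriers depend on partner proteins: the sodium pump that drives them, the kinases that switch them, the scaffolds that hold them at the membrane and the carbonic anhydrases that feed them with bicarbonate. Of 25 such genes with a probe, 1 was called higher and 2 lower, beside the shares of 1.96% and 1.7% over all genes. Txnip, which removes glucose carriers from the cell surface, had levels of 10.005, 9.35 and 9.43 in the wildtype pools and of 10.69, 10.04 and 10.11 in the Fgfrl1-/- pools. Its ratios of 0.68, 0.69 and 0.68 were nearly the same on the 3 arrays (1.60-fold, limma adjusted p = 0.015).

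The cytosolic carbonic anhydrase Car2 had levels of 9.81, 9.97 and 9.87 in the wildtype pools and of 9.20, 9.33 and 9.09 in the Fgfrl1-/- pools, and the groups did not overlap. It fell by 0.68 on the log2 scale, or 1.60-fold (limma adjusted p = 0.017). The membrane-bound carbonic anhydrase Car4 fell by 0.62 (limma adjusted p = 0.046), with levels of 6.57 to 6.77 in the wildtype and 5.87 to 6.17 in the Fgfrl1-/- pools. It was well above background in 3 wildtype pools but in 1 Fgfrl1-/- pool only. Red blood cells are rich in carbonic anhydrase, and the erythroid sums given above moved in the same direction. Their part in these differences was not tested.

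The other partners did not pass the threshold. The pump subunits Atp1b1 and Atp1b3 averaged 0.34 and -0.21. The kinase Wnk4 was higher on all arrays, at 0.47, 0.27 and 0.27 (limma adjusted p = 0.076), whereas Wnk1, Wnk2 and Wnk3 lay between 0.00 and 0.10. The kinase Sgk1 had ratios of 0.05, -0.68 and -0.43. The scaffolds Slc9a3r1 and Slc9a3r2 averaged 0.31 and 0.38 with limma adjusted p of 0.334 and 0.094. The transcription factor Hnf4a, which drives carrier genes in the mature tubule, averaged 0.01 and was detected in 1 pool of each genotype.

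**Figure D5:**
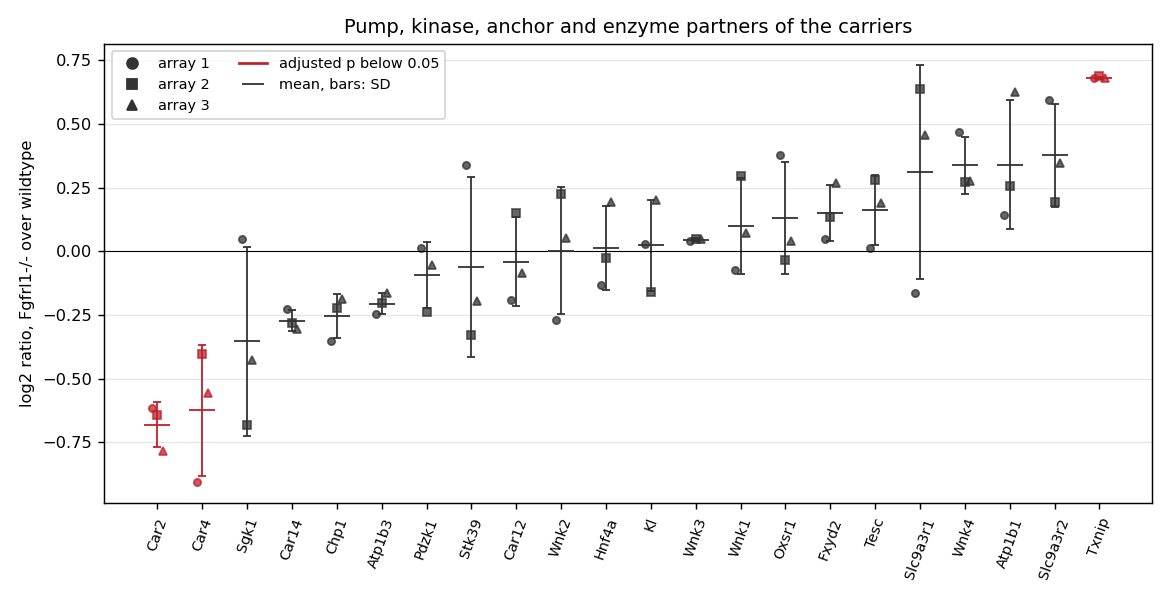
log2 ratio of Fgfrl1-/- over wildtype (y axis) of 22 of the 25 partner and regulator genes of the carriers (x axis), with 1 symbol per array, the mean as a bar and the SD as an error bar; genes with a limma adjusted p below 0.05 are red. Car2 and Car4 stand at the low end with means of -0.68 and -0.62 and Txnip at the high end with 0.68.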

How the data were processed

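RNA of 3 Fgfrl1-/- and 3 wildtype pools was measured on 3 Agilent arrays of 45018 spots. The authors deposited the scanner output, which holds spot and background intensities, a log10 ratio of wildtype over Fgfrl1-/- and flags per spot (made with Feature Extraction, which the file headers give as 9.5.3.1 on array 1 and as 10.5.1.1 elsewhere, and the submitters' processing notes as version 10), and a table of log2 ratios. The steps behind this table and its direction are not given in the sources used here. It correlated with the log10 ratios at -0.707 to -0.723 and was taken as Fgfrl1-/- over wildtype. Its medians were -0.018, 0 and 0.003.

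Intensities were corrected with normexp (offset 50) and loess in limma 3.58.1 under R 4.3.3. After removal of 1639 control spots and of outlier spots (107 to 138 per array), spots of 1 probe were averaged. No spot was saturated (0 spots). Levels were scaled between arrays with Aquantile. Symbols came from RefSeq (GRCm38.p6), which named 33116 of 41174 probes. Slc9a10 keeps its name from the files, and 3 probes of carrier genes with other names in the files were left out. Each gene was represented by its brightest probe and tested with lmFit and eBayes on the paired ratios, with Benjamini-Hochberg adjustment over 19754 genes. The procedure was tested on simulated data. No source says that pools stem from separate litters, so p-values measure the spread between these pools, with a precision limited by having 3 arrays.

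The members and the gene lists were chosen with earlier results of these data known. Named were called carriers, the highest and lowest detected member of each family, members of the role lists and called partners, and others are shown for their values. Some genes that enter the counts and medians are not reported by name here. Of the listed genes, Tmem27 and Epb4.2 were not measured under these names. Detection was recounted under other flags and array minimums, and the ratios under the alternatives listed in the closing section.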

Additional observations from a re-analysis of the deposited data

How the results depend on the processing

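With 3 pairs of pools, 1 slide per software version and no dye swap, the depth of the data is set by the number of arrays and by signal over background. The cause of the shifts below was not tested. Against 2 carriers called higher, among 387 of all genes, 1 was called without background subtraction (279 of all genes), with the mean of the probes (346), with every probe tested (240) or with separate channels and no replicate block (282). With 0 carriers called, limma called 113 of all genes higher in the authors' log2 table, 17 with median centring, 6 with 1 value per slide, 3 with a trended and robust eBayes, and 0 with the ratios of the scanner software or an offset of 0. Median centring also turned the split of all calls, from 387 higher and 336 lower to 17 higher and 305 lower. Leaving out 1 array gave 0 to 8 carriers called higher and 0 to 4 lower, with 8 and 4 without array 1, where 2418 of all genes were called higher and 2247 lower, and 0 without array 2 or 3, where 11 and 0 of all genes were called higher. Dim probes left out (15044 genes) and outlier spots kept called 2 carriers each, while Aquantile scaling leaves the ratios as they are by construction.

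The median of all carriers (0.008) was 0.0024 without background subtraction, 0.026 with an offset of 0, 0.05 with median centring, 0.016 without dim probes, 0.014 with the mean of the probes or with every probe tested, -0.013 in the authors' table, and -0.0046 to 0.011 with 1 array left out. That of Slc4 (-0.04) was 0.14 without background subtraction, -0.16 with an offset of 0, 0.19 with the scanner ratios, 0.0523 with median centring and 0.10 in the authors' table. The median of Slc12 was 0.0082 with the scanner ratios, that of Slc9 was -0.0776 with every probe tested, and that of Slc5 was -0.095 in the authors' table and 0.092 with median centring. The median of Slc34 (0.085) was -0.122 without background subtraction, -0.093 in the authors' table, 0.278 with an offset of 0 and 0.229 with the scanner ratios, and that of Slc2 (0.029) was -0.076 with every probe tested. With 1 array left out, the medians ran from -0.04 to 0.10 for Slc2, -0.04 to 0.00 for Slc5, -0.07 to 0.01 for Slc4, -0.04 to 0.00 for Slc9 and Slc12, 0.01 to 0.07 for Slc22 and -0.03 to 0.15 for Slc34. The sign of the mean ratio turned under at least 1 of 15 alternatives for 43 of the 70 carriers, 17 of them among the 36 detected in all pools, and for 23 with 1 array left out. Slc22a12 was -0.12 and Slc4a9 -0.011 without array 1, and Slc22a13 was 0.07 without array 2 and 0.04 without array 3. Among the called carriers and those at the ends of a family, Slc5a10 was -0.01 without background subtraction and -0.03 in the authors' table, and Slc22a20 was 0.18 with 1 value per slide and -0.79 to 0.28 with 1 array left out.

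Detection on at least 2 arrays in place of 3 gave 5 genes of Slc5 in each genotype and 1 of Slc34 in the Fgfrl1-/- pools. Detection on at least 1 array gave 7 of Slc5 and 1 of Slc34 in the wildtype, and 59 carriers in the Fgfrl1-/- pools, with 9 of Slc5, 6 of Slc9, 14 of Slc22 and 3 of Slc34. The less strict flag for a signal above background gave 6 of Slc5 and 1 of Slc34 in the wildtype, and 8 of Slc5, 7 of Slc9 and 2 of Slc34 in the Fgfrl1-/- pools. With 1 array left out, Slc5 ranged from 3 to 5 genes in either genotype and Slc34 from 0 to 1 in the Fgfrl1-/- pools. The ratios pair the pools of an array, and the fit with separate channels and no replicate block is its unpaired counterpart. The slide as a random block could not be fitted, since the correlation within slides could not be estimated.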

Other observations

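The genes around Slc22a18 were looked up after its value had been seen. In the order of the RefSeq annotation, counting only genes with a probe, it stands between Cdkn1c, an inhibitor of cell division, and Phlda2, and all belong to an imprinted cluster. Cdkn1c had ratios of 0.94, 0.43 and 0.37, with a mean of 0.58 ± 0.31 (SD, n = 3; limma adjusted p = 0.065). Phlda2 had -0.14, 0.07 and 0.08 with a mean of 0.00 ± 0.12 (SD, n = 3; limma adjusted p = 0.987), and Kcnq1 averaged 0.05. The channel gene Trpm5, which lies beyond Kcnq1, rose with ratios of 0.56, 0.53 and 0.59 (limma adjusted p = 0.021). On the far side, Nap1l4 averaged -0.09 and Cars -0.37 (limma adjusted p = 0.053). The genes of this stretch did not share 1 direction.

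Among the 258 solute carriers of other families, 6 were called higher and 2 lower, also named after their values were seen. The shares over all genes were 1.96% and 1.7%, and nothing particular to these carriers can be read from the counts. The vesicular carrier Slc32a1 fell by 2.54 on the log2 scale (limma adjusted p = 0.00105) and the mitochondrial nucleotide carrier Slc25a5 by 0.46 (limma adjusted p = 0.033). The amino acid carrier Slc7a8 and its heavy chain Slc3a2 were higher by 0.88 and 0.40 with limma adjusted p of 0.011 and 0.049. Slc24a3, Slc26a7, Slc1a3 and Slc44a2 rose by 0.65, 0.51, 0.47 and 0.44.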
